A study of Mus musculus with 12 samples.

Results

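The genes described here are the 184 genes of distal mouse chromosome 8 that were bright enough on these arrays to be read with some precision. A gene was taken when it lay on chromosome 8 at or beyond 90 Mb in gene position, when the brightest of its probe sets with exactly 1 gene symbol had a mean log2 signal of at least 8 over 12 arrays, and when it was not one of 5 genes left out by name. Of 18193 genes on the arrays, 940 lay on chromosome 8 and 369 of these were distal, of which 180 were under the signal minimum. The stretch was chosen because its signals were high in Smad4-null cells, so every Smad4-null minus WT value of these genes is a description and none of them is a test. Trim33-KD against WT and the responses to activin played no part in the choice.

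The number of copies of a chromosome sets how much template a cell has for all genes on it at once, and transcript levels commonly follow copy number in part. Mouse embryonic stem cell lines can gain or lose whole chromosomes or parts of them in culture, and chromosome 8 is a well-known example of a gain. Copy number was not measured in these samples. Feedback on single genes, and the removal of protein subunits that lack partners, can set the output of a gene apart from its template.

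The RNA came from embryoid bodies, which are clumps of mouse embryonic stem cells of strain 129 left to differentiate, grown without LIF in low-attachment dishes to day 2.5. They were WT, Smad4-null or Trim33-KD, where Smad4 is the partner shared by receptor-activated Smad proteins and Trim33, a ubiquitin ligase of the nucleus, can bind those proteins as well. Each genotype received activin at 50 ng/ml, which turns on Smad2 and Smad3, or SB431542, a blocker of the type I activin receptors given in the labels as 10 mM, for 2 h. The 6 groups had 2 Affymetrix arrays each, or 4 per genotype, and precision is limited by so few arrays. The labels do not name the Smad4 allele, the knock-down construct or the number of clones behind each line, so a difference between lines cannot be told apart from a difference between genotypes. They do not say either whether replicates were separate cultures, and p-values then measure only the spread between these samples.

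Signals are log2 values per probe set. Trim33 itself was down to 34.4% and 30.3% of WT in Trim33-KD by its bright probe sets. Smad4 stood at 101%, 110% and 115% of WT in Smad4-null by its 3 probe sets, which therefore offer no check of the Smad4-null label. The spread of signals was narrowest on WT-SB replicate 2 (SD 3.07) and Smad4-null-ac replicate 1 (SD 3.13), against 3.24 to 3.39 elsewhere. The 8 epiblast genes, of which 0 were under a linear signal of 64 on all arrays, had a summed linear level of 50060 to 61530 in WT, 50680 to 51180 in Smad4-null and 48520 to 58280 in Trim33-KD. The 3 measured primitive streak genes summed to 3491 to 7485, 292 to 469 and 1850 to 4577 in the same order. The 6 trophoblast genes summed to 2641 to 3411, 2245 to 2368 and 3623 to 7738, and the 8 extraembryonic endoderm genes to 958 to 1124, 730 to 867 and 865 to 985. Such sums hide single genes. By mean log2 signal, the epiblast genes Fgf5 (9.89 against 11.32), Tdgf1 (12.38 against 13.08) and Pou5f1 (12.90 against 13.21) were lower in Smad4-null than in WT without overlap. Sox2 was higher (13.19 against 12.71), and the other epiblast genes overlapped. Of the trophoblast genes, Cdx2 (5.16 against 8.12) and Krt8 (10.16 against 10.83) were lower in Smad4-null than in WT without overlap. In Trim33-KD only Krt8 stood apart from WT, higher at 11.90 against 10.83, and the other trophoblast genes overlapped WT. The fibroblast genes gave 519 to 655 over all arrays, with 4 of 8 under 64 throughout. Within that sum the mean log2 signal of Dcn was 4.59 in WT, 7.86 in Smad4-null and 4.50 in Trim33-KD, and that of Thy1 was 8.39, 7.63 and 8.25, with Smad4-null apart from WT without overlap in both. Col1a2, at 6.67, 6.18 and 6.27, was also lower in Smad4-null than in WT without overlap. The part of these cell type differences in the results below was not tested. In bulk samples, more cells of a type and more RNA per cell cannot be told apart.

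The 184 genes were shifted up together in Smad4-null embryoid bodies. Their median Smad4-null minus WT difference was 0.42 on the log2 scale, or 134% of the WT signal, and 165 of them (89.7%) were above 0. The quartiles were 0.24 and 0.67, and the extremes were -0.94 for Ces5a and 1.70 for 1190005I06Rik. For the 7824 genes of other chromosomes at the same signal minimum the median was -0.01, and for the 279 genes of proximal chromosome 8 it was 0.11, or 108% of WT. In Trim33-KD the same 184 genes had a median difference of 0.05 from WT, against 0.02 for the 8301 genes of any chromosome at that signal.

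**Figure D1:**
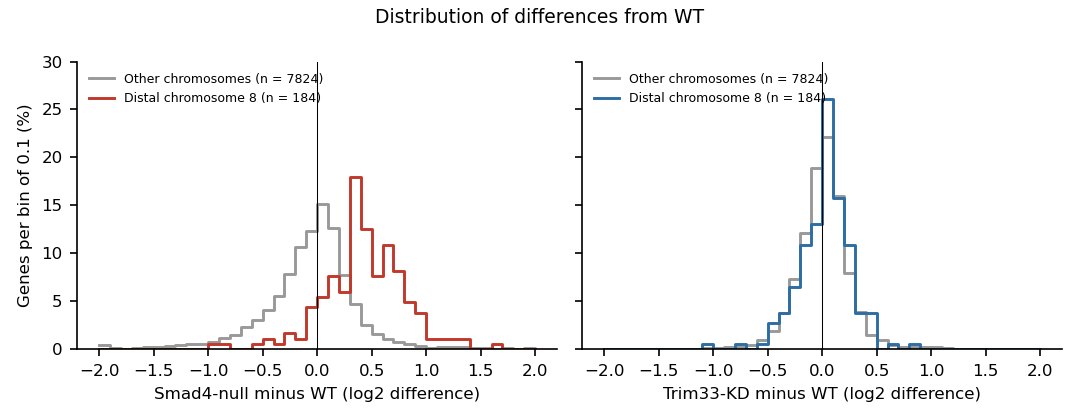
Distribution of log2 differences from WT for the 184 distal chromosome 8 genes (coloured) and 7824 genes of other chromosomes (grey), as the percentage of genes per bin of 0.1, with values beyond 2 or -2 counted in the end bins. The coloured outline is displaced to the right in the Smad4-null panel, with a median of 0.42, and lies over the grey one in the Trim33-KD panel, with a median of 0.05.

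The shift was present on each Smad4-null array. The median over the genes, each taken relative to its own WT mean, was 0.44 and 0.43 on the Smad4-null arrays with activin and 0.45 and 0.39 on those with SB431542. On the WT arrays it ran from -0.03 to 0.03, and on the Trim33-KD arrays from -0.00 to 0.06. The 4 Smad4-null arrays therefore stood apart from the other 8 without overlap in this median. By treatment, the median difference from WT was 0.47 with activin and 0.39 with SB431542, and 152 genes were above WT under both treatments.

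Gene by gene, 120 of the 184 genes (65.2%) had all 4 Smad4-null arrays above all 4 WT arrays, 3 genes (1.63%) had them all below, and 61 overlapped. Over all 18193 genes, 10.8% had all Smad4-null arrays above WT and 15% had them all below. With limma's moderated test over all genes, 100 of the distal genes were called raised and 1 was called lowered, where 7.12% of all genes were raised and 11.3% lowered. Because the genes were picked on this contrast, nothing is read from these counts. Of the 180 dimmer distal genes, 20 were called raised and 10 lowered, with a median of 0.18.

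The height of the shift changed along the chromosome. Cut into 8 consecutive runs of 23 genes, the median rose from 0.19 in the run Tox3 to Cfap20 and 0.25 in the run Csnk2a2 to Ripor1 to 0.50 in the run that opens with Ctcf, the insulator protein that shapes chromatin loops. It was 0.51 from Sntb2 to Cog4, 0.52 from Fcsk to Gcsh, 0.64 (156% of WT) from Cmip to Klhdc4, 0.43 from Banp to Ccsap and 0.37 from Nup133 to Itgb1, the last gene of the stretch. Before Ctcf the median was 0.23 over 46 genes (117% of WT). From Ctcf on it was 0.50 over 138 genes (142%). Over the same runs the Trim33-KD medians stayed between -0.01 and 0.08. The Ctcf boundary was chosen after the values were seen.

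**Figure D2:**
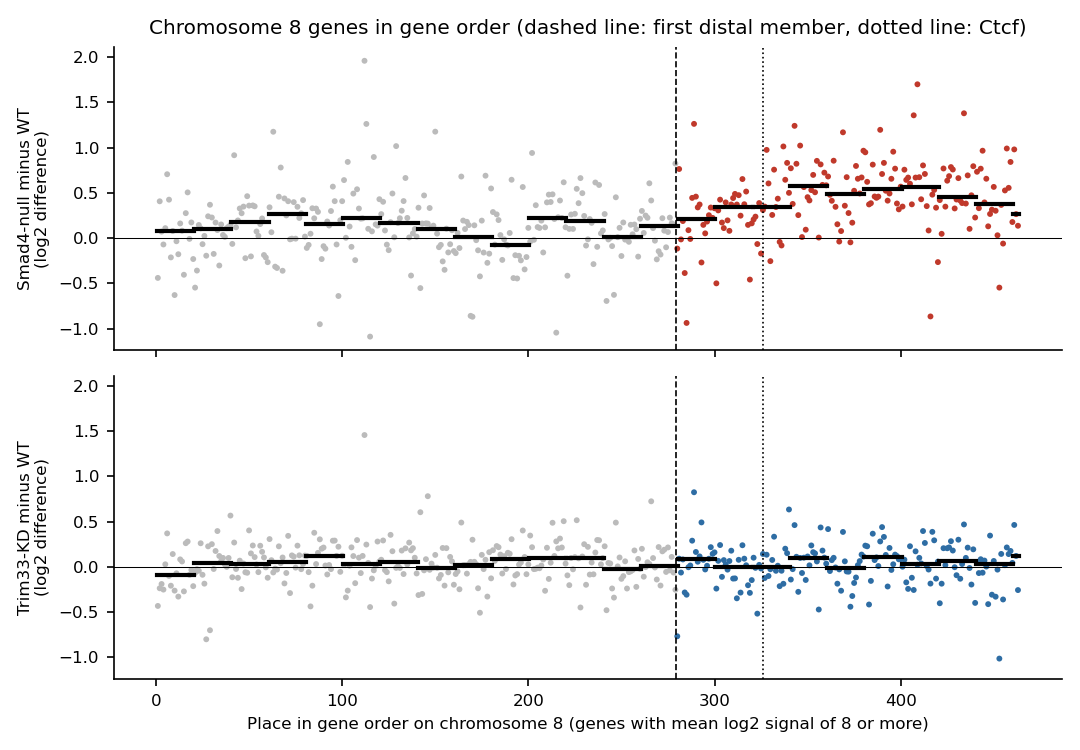
Difference from WT in log2 units for each chromosome 8 gene with a mean log2 signal of at least 8, placed by gene order, with black bars for medians of consecutive windows of 20 genes. Coloured points are the 184 distal genes and grey points the 279 proximal ones; the Smad4-null medians reach 0.57 to the right of Ctcf, while the Trim33-KD medians stay near 0 throughout.

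**Figure D3:**
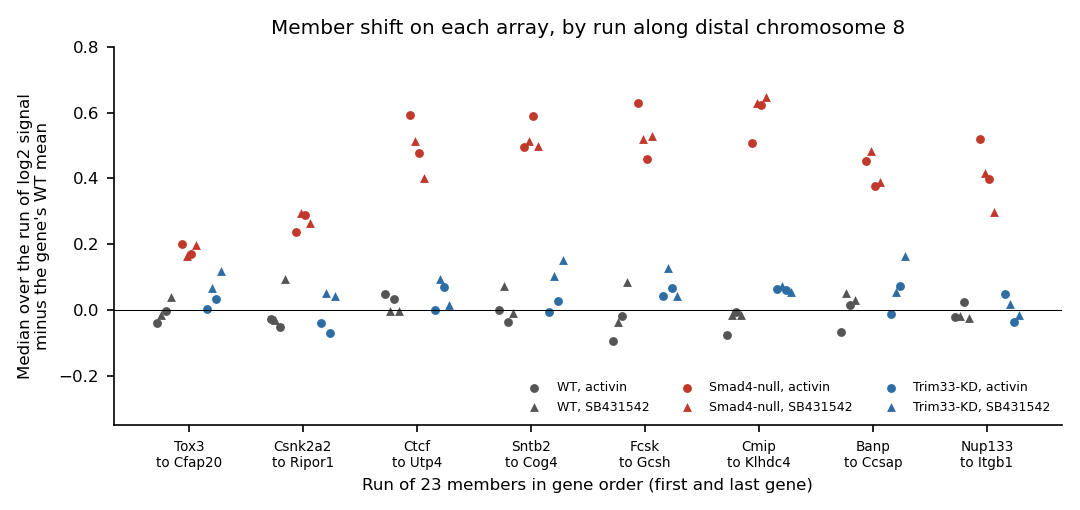
Median over each run of 23 distal genes of the log2 signal relative to each gene's WT mean, with 1 point per array. The 4 Smad4-null arrays lie above the 8 others in all 8 runs, at 0.16 to 0.20 in the first run and 0.51 to 0.65 in the run Cmip to Klhdc4.

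Windows of 20 genes along the rest of the chromosome had Smad4-null medians between -0.07 and 0.26. Distal windows of the same size opened with 0.21 from Chd9 to Ccdc102a, inside that range, followed by 0.34 from Usb1 to E2f4 and 0.35 from Tmem208 to Esrp2, both above it. On either side of the position limit, the proximal genes Brd7, Cyld and Sall1 had differences of 0.16, 0.15 and 0.82, and the distal genes Tox3, Chd9 and Aktip had -0.12, 0.76 and -0.01. Just under the signal minimum, Vps9d1, Kifc3 and Spire2 had 0.37, 0.79 and -0.37. Just inside it, Sntb2, Jph3 and Slc9a5 had 0.09, -0.86 and -0.07.

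The median was above 0 at each level of signal, but the shift was less even in the dimmer genes. Genes with a mean log2 signal of 8 to 9 had a median of 0.31 (43 genes, 9 of them below 0). At 9 to 10 it was 0.41 (43 genes, 6 below 0) and at 10 to 11 also 0.41 (40 genes, 4 below 0). Genes of 11 to 12 had a median of 0.52 (31 genes, 0 below 0), and the 27 brightest 0.45 (0 below 0). Further probe sets of these genes come from the same arrays and are not an independent check. The 95 bright ones, of 63 genes, had a median Smad4-null minus WT difference of 0.43, with 82 above 0. All 209, of 108 genes, had a median of 0.35, with 167 above 0. Nup133, a nuclear pore scaffold, had 6 probe sets between 0.48 and 0.90. Tomm20, the receptor of the mitochondrial import channel and the brightest of the genes, had 6 between 0.18 and 0.69.

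Genes close to the median show what the common shift looked like in single genes. Cox4i1, a subunit of cytochrome c oxidase, read 13.09 and 13.17 with activin and 13.09 and 13.37 with SB431542 in WT, and 13.81, 13.53, 13.53 and 13.57 in Smad4-null in the same order. Its Trim33-KD arrays read 13.10, 13.24, 13.29 and 13.24, inside the WT range, and the Smad4-null arrays were at 135% of WT without overlap. Csnk2a2, the catalytic subunit of casein kinase 2 known as alpha prime, and Chmp1a, of the membrane-cutting ESCRT-III complex, each had a difference of 0.43. Pdf, the mitochondrial peptide deformylase, had 0.42, as did Mvd, the enzyme that makes isopentenyl diphosphate for sterol synthesis.

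At 1.5-fold, the ratio of 3 copies to 2, the log2 difference is 0.585, and 61 of the 184 genes were at or above it. Above 1, that is doubled or more, were 9, and 3 were below -0.5. These counts hold for the signals as deposited. With arrays centred on their median, the median of the 184 genes was 0.57 in place of 0.42, so counts against fixed limits depend on the scaling. Within 0.25 of the median lay 99 genes. The differences had an SD of 0.38 over the genes, where the median standard error of a single difference was 0.11. The interquartile width was 0.44 for Smad4-null against WT and 0.25 for Trim33-KD against WT, while 0.41 was found for genes of other chromosomes in Smad4-null.

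By what the genes do, the shift is described class by class. The genes were picked on this contrast, so nothing is read from the counts called raised, beside 7.12% of all genes. The 22 genes of RNA processing, export and translation had a median of 0.47, 21 were above 0 and 17 were called raised. Slc7a6os, whose yeast counterpart helps RNA polymerase II into the nucleus, led them with 1.24. Adat1, a tRNA adenosine deaminase, lay in the middle with 0.46, and Usb1, which trims the end of U6 small nuclear RNA, was lowest with -0.50. Of 12 genes of replication, repair, telomeres and kinetochores, 12 were above 0 and 10 were called raised, with a median of 0.52. Cenpt, an inner kinetochore protein, was at 0.76, the telomere repeat binder Terf2 at 0.51 and Chtf8, of an alternative clamp loader, at 0.01.

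The replication licensing factor Cdt1 is the brightest of that class. Its signals were 12.89 and 13.17 with activin and 12.90 and 13.28 with SB431542 in WT, against 13.86, 13.69, 13.58 and 13.65 in Smad4-null. The Smad4-null arrays were all above WT, at 155%, and the Trim33-KD arrays, at 13.29, 13.27, 13.28 and 13.23, overlapped WT.

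The 25 genes of transcription and chromatin had a median of 0.53, with 23 above 0 and 14 called raised. They ran from Gse1, a nuclear coiled-coil protein, at 1.36 through Banp, which binds unmethylated CG motifs, at 0.53 to the HMG-box factor Tox3 at -0.12. In the class of mitochondria and metabolism 20 of 20 genes were above 0 and 13 called raised, with a median of 0.43. Dhodh, which makes orotate for pyrimidines, had 0.86, and Got2, the mitochondrial aspartate aminotransferase, had 0.08. Of 25 genes of vesicle traffic, Golgi and autophagy, 23 were above 0 and 15 called raised, with a median of 0.45. Vac14, the scaffold of the PIKfyve lipid kinase, led with 1.17, and the sialyltransferase St3gal2 was lowest with -0.05.

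Ubiquitin and proteasome genes had a median of 0.53 over 10 genes, with 8 above 0 and 5 called raised. The ubiquitin ligase Wwp2 had 0.72, Nae1, which charges Nedd8, had 0.47, and Herpud1, an endoplasmic reticulum protein of misfolded protein disposal, had -0.27. The lowest class was signalling, adhesion and development, with a median of 0.27 over 17 genes, 15 above 0 and 6 called raised. It held both Tubb3, the neuronal beta-tubulin, at 1.38 and the oxygen sensor Egln1 at -0.55, with the polarity scaffold Pard3 at 0.27 in the middle. All class medians stayed above 0 in Smad4-null after quantile normalization; centring the arrays raises every gene alike and could not have turned them. The 50 genes in none of the classes had a median of 0.35, with 40 above 0, 18 called raised and 1 lowered.

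Metallothioneins bind zinc and copper and buffer metal stress. Mt3, the brain form, had signals of 7.50 and 7.93 with activin and 7.21 and 7.98 with SB431542 in WT, and 8.81, 8.95, 9.01 and 8.90 in Smad4-null. Its neighbours Mt1 and Mt2, the widely expressed forms, differed by 0.34 and 0.46 at signals over 13. The Mt1 arrays of Smad4-null, 13.94 and 13.56 with activin and 13.45 and 13.60 with SB431542, overlapped those of WT, at 13.28, 13.12, 13.29 and 13.49. The Mt3 gap of 1.26 lay at 0.84 above the median of the 184 genes.

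Several of the genes code for subunits of complexes whose other subunits are encoded elsewhere in the genome, and the Smad4-null shift was compared between these and those as a description. Over 7 complexes, 14 of 14 subunits on distal chromosome 8 were above 0, with a median of 0.48 and 9 called raised. The stretch was chosen for high Smad4-null signals, which by itself sets its subunits above partners elsewhere, so nothing is read from this contrast. The 58 partners on other chromosomes, counted over 8 complexes, had a median of 0.06, with 33 above 0. Of these partners, 4 were called raised and 6 lowered, where 7.12% and 11.3% of all genes were. The 8 complexes include CCR4-NOT, which had no subunit among the genes described here. Of the 6 partners called lowered, 3 lie on chromosome 14. Whether their neighbours on that chromosome were low as well was not tested.

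In the COG complex, which tethers vesicles at the Golgi, Cog4 went from 9.71 and 9.50 with activin and 9.71 and 9.57 with SB431542 in WT to 10.32, 10.29, 10.33 and 10.25 in Smad4-null. Cog2 was at 0.66, Cog4 at 0.67 and Cog8 at 0.53. Of the 5 partners, 0 were called raised and their median was 0.24. Cog3, on chromosome 14, fell by 0.62 (SE 0.17, limma adjusted p = 0.0407, lower in 4 of 4 arrays). Among the shelterin proteins that cap telomeres, Terf2 was at 0.51, its partner Terf2ip at 0.46 and the telomerase recruiter Acd at 0.35. Tinf2, which bridges them and lies on chromosome 14, fell by 0.87 (SE 0.10, limma adjusted p = 0.00138), and Terf1 had -0.26 and Pot1a 0.43, neither past the threshold.

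**Figure D4:**
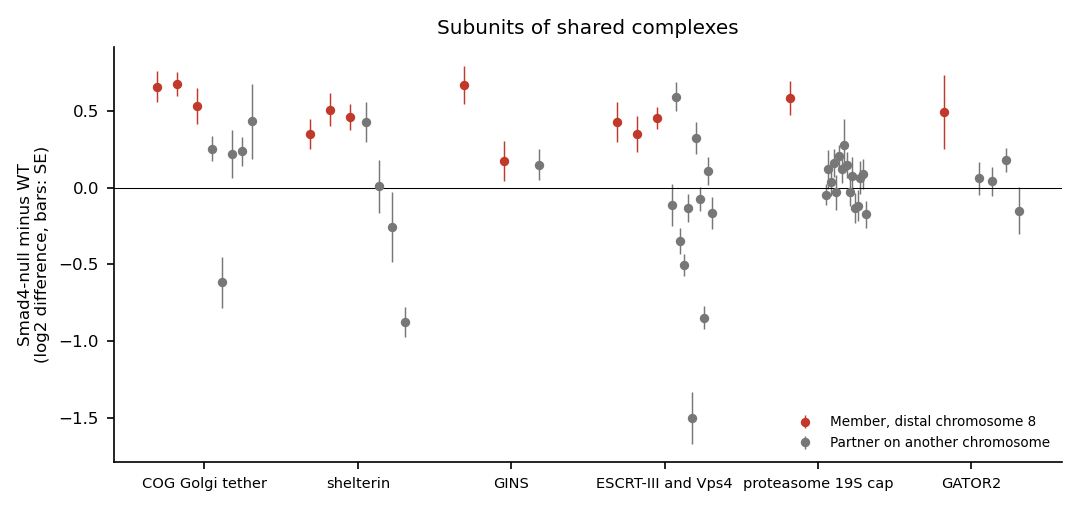
Smad4-null minus WT log2 difference of the subunits of 6 complexes, with bars of 1 SE, for the subunits encoded on distal chromosome 8 (red) and those on other chromosomes (grey). The red points lie between 0.17 and 0.67, and the grey points of each complex have medians between -0.13 and 0.24.

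In the 19S cap of the proteasome, Psmd7 is a lid subunit that holds the deubiquitinating subunit in place. It read 11.37 and 11.16 with activin and 11.45 and 11.09 with SB431542 in WT and 11.67, 11.90, 11.93 and 11.91 in Smad4-null, or 150% of WT with no overlap. Its 16 partners had a median of 0.07, none called, although 10 were above 0. That median changed sign, to -0.02, after quantile normalization. With Wdr59 of GATOR2, which relays amino acid supply to mTORC1, the difference was 0.49 with overlapping arrays, and its 4 partners had a median of 0.05. For GINS, which opens replication forks with the MCM helicase, Gins2 had 0.67 and Gins3 0.17, while Gins1 had 0.15. Gins4, on the proximal part of the chromosome, had 0.34.

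The ESCRT-III filament cuts membranes from the inside and is taken apart by Vps4. Vps4a had 0.45, Chmp1a 0.43 and Ist1 0.35. Their 11 partners had a median of -0.13, which turned to 0.02 when arrays were centred on the median, and 1 was called raised and 4 lowered. Chmp2a rose by 0.59 (SE 0.09, limma adjusted p = 0.00485), whereas Chmp4c fell by 1.50 (SE 0.17, adjusted p = 0.00128) and Chmp7, on chromosome 14, by 0.85 (SE 0.08, adjusted p = 0.000515). E2f4, the repressor subunit of the DREAM complex, had 0.16 beside a median of 0.03 over 8 partners. For CCR4-NOT, which shortens poly(A) tails, the 9 measured subunits on other chromosomes had a median of 0.06.

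The genes farthest above the common shift were 1190005I06Rik (1.70), Tubb3 (1.38), Gse1 (1.36), Mt3 (1.26), Slc7a6os (1.24), the predicted gene Gm9564 (1.20), Vac14 (1.17), the Golgi organization gene Tango6 (1.02), the potassium chloride cotransporter Slc12a4 (1.01) and the potassium channel Kcnk1 (0.99). Farthest below it were Ces5a (-0.94), Jph3 (-0.86), Egln1 (-0.55), Usb1 (-0.50), the exocyst relative Exoc3l (-0.46), the matrix gelatinase Mmp2 (-0.39), Herpud1 (-0.27), the NADPH oxidase subunit Cyba (-0.26), Gfod2 (-0.25) and the RhoA regulator Ripor1 (-0.17). These 20 genes stayed on their side of the median of the group after quantile normalization, with probe sets averaged and without any single array. The signal minimum bears on the upper end: 1190005I06Rik had means of 7.62 in WT and 7.64 in Trim33-KD and passed it through Smad4-null alone. In WT, 4 of the 184 genes had a mean under it, Mt3 (7.65) among them. Over the WT and Trim33-KD arrays together 3 genes did, namely 1190005I06Rik, Nqo1 and Sntb2.

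**Figure D5:**
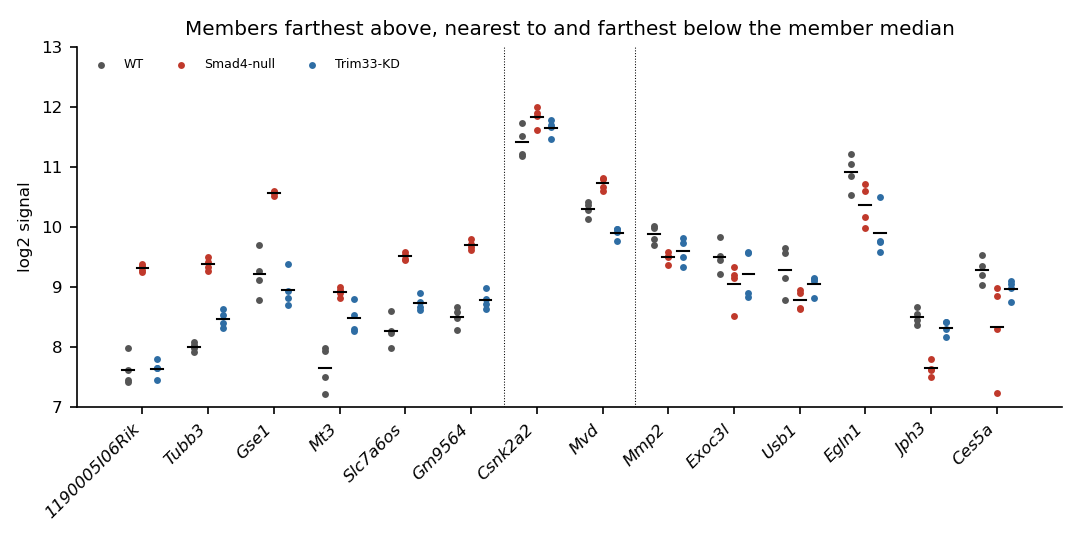
Log2 signal on each of 12 arrays, with a bar for the mean of 4, for the 6 genes farthest above the median of the 184 genes, 2 genes next to it (Csnk2a2 and Mvd) and the 6 farthest below it. Smad4-null points lie above the others for the first 6 genes, while for Jph3 they lie below both other genotypes.

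1190005I06Rik, a short open reading frame of unnamed function, read 7.42 and 7.61 with activin and 7.44 and 7.99 with SB431542 in WT. In Smad4-null it read 9.38, 9.25, 9.34 and 9.28, and in Trim33-KD 7.80, 7.65, 7.65 and 7.46. The Smad4-null arrays stood far above both others, at 325% of WT, and WT and Trim33-KD overlapped. Its neighbours in gene order, Gins2 and Emc8, had differences of 0.67 and 0.67.

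Tubb3 read 7.92 and 8.03 with activin and 8.08 and 7.99 with SB431542 in WT, then 9.33, 9.27, 9.50 and 9.42 in Smad4-null. Both neighbours, Tcf25 and Def8, had 0.39 and 0.38. Gse1 read 9.70, 9.26, 9.11 and 8.78 in WT and 10.57, 10.52, 10.59 and 10.61 in Smad4-null in the same order of treatments. All Smad4-null arrays of both genes were above WT. The excess of Gse1 rested on 1 probe set: the other 2 had differences of 0.48 and 0.27, and with the mean of the 3 its excess over the group median fell from 0.93 to 0.29. Slc7a6os likewise had a second, dim probe set at 0.42.

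Urb2, a factor of ribosome assembly, was among the most even. It read 10.54 and 10.60 with activin and 10.61 and 10.51 with SB431542 in WT, 11.50, 11.57, 11.56 and 11.49 in Smad4-null, and 10.51, 10.50, 10.54 and 10.44 in Trim33-KD. Smad4-null stood at 195% of WT with a gap many times the spread within a genotype.

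Jph3, a junctophilin that pins the plasma membrane of neurons to the endoplasmic reticulum, was the 1 gene called lowered, a call that was lost when probe sets were averaged per gene (-0.86, 0 genes called lowered). It read 8.45 and 8.37 with activin and 8.55 and 8.66 with SB431542 in WT, 7.62, 7.51, 7.64 and 7.81 in Smad4-null and 8.30, 8.17, 8.42 and 8.41 in Trim33-KD. The Smad4-null arrays were below all others, at 54.9% of WT. Klhdc4, on one side of it in gene order, had 0.48, and Zcchc14, on the other, had 0.08.

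Egln1 marks hypoxia-inducible factors for destruction when oxygen is at hand. It read 11.05 and 10.54 with activin and 11.22 and 10.84 with SB431542 in WT, 10.72, 10.17, 9.99 and 10.59 in Smad4-null, and 10.50, 9.77, 9.59 and 9.74 in Trim33-KD. Smad4-null overlapped WT, and Trim33-KD was below it. A second Egln1 probe set, nearly as bright, had -0.09 in Smad4-null and -0.42 in Trim33-KD, so the 2 probe sets disagree on the size.

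Ces5a, a secreted carboxylesterase, read 9.53 and 9.04 with activin and 9.34 and 9.20 with SB431542 in WT and 7.23, 8.86, 8.98 and 8.29 in Smad4-null. The lowest of these, Smad4-null-ac replicate 1, is one of the arrays of narrow spread, and without it the difference was -0.53 in place of -0.94. Its other probe sets were dim, and with the mean of the 3 the difference was -0.36.

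Some of the genes share a start region with a neighbour on the opposite strand, which lets their shifts be compared at the same place on the chromosome. Among the 184 genes, 15 such pairs had starts within 1000 bases. The gap between the paired genes in Smad4-null minus WT had a median of 0.26 and ran from 0.01 to 0.72, beside 0.32 over 168 other neighbouring pairs. The sequences between the starts of 3 pairs with close differences and 3 with differences farther apart are given here, to show what the paired genes have in common. The 3 close pairs are not the closest of the 15. They come from RefSeq with the build GRCm38.p6 and are written on the plus strand, with GGGCGG and CCAAT boxes of either strand in capitals (CCGCCC and ATTGG on the other strand). The array files name no build of their own. A RefSeq promoter entry was found for 157 of the genes.

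Nudt21/Ogfod1, chr8:94037040-94037197: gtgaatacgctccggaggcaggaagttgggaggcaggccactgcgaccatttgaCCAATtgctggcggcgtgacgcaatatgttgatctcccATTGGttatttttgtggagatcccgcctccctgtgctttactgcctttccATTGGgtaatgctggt
Cog8/Nip7, chr8:107056738-107056876: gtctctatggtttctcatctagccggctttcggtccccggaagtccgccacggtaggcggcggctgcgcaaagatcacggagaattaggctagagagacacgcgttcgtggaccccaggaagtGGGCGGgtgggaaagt
Taf5l/Urb2, chr8:124021398-124021496: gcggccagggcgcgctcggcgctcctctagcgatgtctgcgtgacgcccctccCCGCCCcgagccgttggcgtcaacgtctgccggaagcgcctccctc
Slc7a6os/Prmt7, chr8:106210934-106211053: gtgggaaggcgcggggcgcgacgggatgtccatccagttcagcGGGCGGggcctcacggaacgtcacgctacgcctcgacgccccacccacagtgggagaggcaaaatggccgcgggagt
Chtf8/Utp4, chr8:106893594-106893639: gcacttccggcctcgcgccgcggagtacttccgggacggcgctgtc
Rnf166/Ctu2, chr8:122476075-122476142: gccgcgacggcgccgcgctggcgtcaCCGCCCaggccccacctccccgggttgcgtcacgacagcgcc

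Nudt21, which steers poly(A) site choice, and the ribosomal oxygenase Ogfod1 both stayed near WT, at 0.09 and -0.01, and the 158 bases between their starts hold 3 CCAAT boxes, a motif found in 25.3% of all promoter windows of that length. Cog8 and the ribosome factor Nip7 were at 0.53 and 0.70, and Taf5l, of the SAGA-type acetylase complexes, and Urb2 at 0.77 and 0.97. Each of the last 2 regions holds 1 GGGCGG box, which 28.0% and 24.6% of all windows of their lengths hold. The other 3 pairs lay farther apart. Slc7a6os was at 1.24 and the arginine methyltransferase Prmt7 at 0.82, but with its probe sets averaged Slc7a6os was at 0.83, so that this gap rests on 1 probe set. Chtf8 was at 0.01 and the ribosome factor Utp4 at 0.56, and the ubiquitin ligase Rnf166 at 0.05 and the tRNA thiolation factor Ctu2 at 0.77. Between Rnf166 and Ctu2 there are 68 bases, with 1 GGGCGG box (20.2% of windows). The 46 bases between Chtf8 and Utp4 hold neither motif, which says only that these letters are not there. Some pairs not shown had closer differences than all those shown. Of these, Ciapin1/Coq9 (gap 0.08) holds 1 GGGCGG box and Psme3ip1/Rspry1 (0.09) 2 CCAAT boxes. Ttc13/Arv1 (0.05) holds neither motif in 193 bases, and Kars/Terf2ip (0.01) has 4 bases between its starts, too few for either.

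Rnf166 and Ctu2 are the pair with the widest gap. Rnf166 read 8.28 and 8.56 with activin and 8.53 and 8.43 with SB431542 in WT and 8.60, 8.47, 8.45 and 8.47 in Smad4-null, so that the genotypes overlapped. Ctu2 read 10.68, 10.96, 10.82 and 10.93 in WT and 11.39, 11.59, 11.89 and 11.60 in Smad4-null, all above WT.

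Trim33-KD against WT was not used to choose the genes, although it shares the WT arrays with the comparison that was used. Of the 184 genes, 1 (0.543%) passed limma's adjusted threshold, where 0.649% of all genes did, and 30 (16.3%) had an unadjusted limma p under 0.05, beside 17.0% of all genes. All 4 Trim33-KD arrays were above WT for 15 genes (8.15%) and below for 9 (4.89%), against 6.12% and 6.28% of all genes. For genes of other chromosomes at the same signal minimum the shares were 9.74% and 7.44%, both above those of the 184 genes, and this difference was not tested. The median 95% interval of a single gene reached 0.26 to either side, and for 179 of the genes it lay within 1 of no change.

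The gene that passed was Tubb3. Its Trim33-KD arrays read 8.32 and 8.40 with activin and 8.53 and 8.64 with SB431542, above the highest WT array at 8.08 and below the lowest Smad4-null array at 9.27. The difference from WT was 0.47 (SE 0.07, limma adjusted p = 0.0484, higher in 4 of 4 arrays). The call held in 8 of 25 alternatives, with a limma adjusted p between 0.00491 and 0.197, and was lost when any single array of the 12 was left out. Among the 8, the signal minimum of 6 and the limit of 100 Mb leave the fit unchanged, so the call could not be lost there.

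Larger differences that did not pass were those of Mt3 (0.82, SE 0.21, limma adjusted p = 0.129), the epithelial splicing factor Esrp2 (0.63, adjusted p = 0.121) and Herpud1 (0.49, adjusted p = 0.205). In the other direction stood Egln1 (-1.01, SE 0.24, limma adjusted p = 0.122), Tox3 (-0.77, adjusted p = 0.123) and the sodium proton exchanger Slc9a5 (-0.52, adjusted p = 0.122). When only the brighter 50% of genes entered the fit, 16 of the 184 genes (8.7%) were called, among 8.67% of all genes then tested. With a trended and robust prior there were 11 (5.98%, beside 3.5%), and Mt3, Esrp2, Egln1, Tox3 and Slc9a5 were called in both.

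Mvd lay on opposite sides of WT in the mutants. It read 10.37 and 10.14 with activin and 10.42 and 10.29 with SB431542 in WT, 10.81, 10.67, 10.60 and 10.82 in Smad4-null and 9.97, 9.77, 9.96 and 9.92 in Trim33-KD. No array of one genotype overlapped another. The Trim33-KD difference was -0.40 (SE 0.10, limma adjusted p = 0.127). Dync1li2, a light intermediate chain of the dynein motor, had the same order, with 0.37 in Smad4-null and -0.35 in Trim33-KD (adjusted p = 0.226).

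Activin against SB431542 called 0 of the 184 genes in WT, 0 in Smad4-null and 0 in Trim33-KD by limma, where 0.033%, 0.011% and 0.011% of all genes were called. At an unadjusted limma p under 0.05 there were 1, 2 and 2 of these genes (0.5%, 1.1% and 1.1%). Over all genes there were 731, 1239 and 766 (4.0%, 6.8% and 4.2%). The lower shares among the 184 genes were not tested. Their median differences were -0.03, 0.01 and -0.06. Neither did any of them pass in the difference between the Smad4-null and WT responses or between the Trim33-KD and WT responses (0% of all genes in limma), with medians of 0.04 and -0.02. At an unadjusted limma p under 0.05 there were 4 and 1 of these genes (2.2% and 0.5%), beside 1317 and 485 over all genes (7.2% and 2.7%). The 95% intervals of a gene's response reached 0.37 to either side at the median, and those of a response difference 0.52.

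Irf2bp2, a transcriptional corepressor, had the activin response with the smallest p among them. In Trim33-KD it read 10.94 and 10.81 with activin against 10.24 and 10.27 with SB431542, without overlap, a difference of 0.62 (SE 0.15, limma adjusted p = 0.744). In WT it read 10.34 and 10.68 with activin and 10.14 and 10.40 with SB431542, which overlapped, and in Smad4-null 11.27 and 11.19 against 11.24 and 11.22.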

How the data were processed

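The log2 signals deposited by the authors, 1 per probe set, were used unchanged. On the linear scale every array averages 500 once 2% of values are trimmed at each end. How probes were summarized is not stated in any source used; limma appears, with no version, in the submitters' processing notes. Of 45101 probe sets, 64 are controls, 34945 have 1 gene symbol in the platform table, 932 several and 9160 none. Each of 18193 genes was read from its brightest probe set, and 18142 have a position in RefSeq's GRCm38.p6 table; 108 of the 184 genes have more than 1 probe set.

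With limma 3.58.1 under R 4.3.3, the means of the 6 groups were fitted jointly over the 12 arrays (lmFit, then eBayes), with Benjamini-Hochberg adjustment over all genes and a threshold of 0.05; 6 residual degrees of freedom remain. Genotype differences average both treatments. Figures used Python 3.11.15 and matplotlib 3.10.9. The members and lists were chosen with earlier results of these data known. Genes named were the 10 farthest above and below the median difference, the 5 nearest it, the 5 brightest, those at the limits, list extremes and middles, complex subunits, genes called in other comparisons or the 3 most changed each way, and neighbours; Urb2, Ctu2, Dync1li2 and the pairs with shared starts were picked after their values were seen. On simulated data, changes of log2 size 1 were recovered in 83.6% of 67 genes for Trim33-KD against WT, 67.2% for the WT response and 29.9% for a response difference. Alternatives were other scalings, filters, probe set rules, priors, weights, limits, a replicate block and leaving out arrays.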

Additional observations from a re-analysis of the deposited data

Results flagged for a closer look

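Single arrays stood far from the other 3 of their genotype for 13 of 60 genes examined. These were 15 of 183 sets of 4 arrays, the last 3 of which held the median shift of all 184 genes in each genotype, where chance gives about 5%. In WT they were Fhod1 (8.71), Kars (12.98) and Mt2 (13.51), high on SB replicate 2, which is an array of narrow spread, and on ac replicate 2 Tox3, high at 8.92, and Ripor1 (8.52), Slc12a4 (8.06) and Slc9a5 (8.16), low. In Smad4-null, the array of narrow spread, ac replicate 1, was high for Cox4i1 (13.81), Kars (13.38), Rnf166 (8.60) and Utp4 (13.20), and SB replicate 1 was high for Chmp1a (12.19). In Trim33-KD, ac replicate 2 was low for Slc9a5 (7.58) and Terf2ip (8.75) and ac replicate 1 for Usb1 (8.82). The part of array spread in these values was not tested. Mvd differed from WT by 0.42 in Smad4-null and by -0.40 in Trim33-KD, with every array of each on its own side. Trim33-KD minus Smad4-null was -0.82 for Mvd, which is given as a description, with no test, because the Smad4-null arrays chose the genes.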

How the results depend on the processing

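The median Smad4-null shift of 0.42 became 0.57 when arrays were centred on their median and 0.57 when centred on genes off chromosomes 8 and 14, scalings that moved the median of all genes from -0.03 to 0.12. It was 0.38 with a signal minimum of 6 and 0.47 from 100 Mb on, and 0.40 to 0.44 when single arrays were left out. The 100 genes called raised became 61 with a signal minimum of 10, which leaves 98 genes, and 74 to 97 without single arrays. Without the arrays of narrow spread they became 72. The count rose to 132 with median centring and 131 with centring on genes off chromosomes 8 and 14. It was 126 in the brighter 50% of genes and 124 with a trended and robust prior. The 1 gene called lowered, Jph3, became 5 genes in the brighter 50%, 4 with a trended and robust prior, 9 with a signal minimum of 6, 2 without WT-ac replicate 2 or without Smad4-null-ac replicate 2, and 0 with probe sets averaged per gene or a signal minimum of 10. The Trim33-KD median of 0.05 became -0.0034 with probe sets averaged per gene and was 0.03 to 0.05 without single arrays. The 1 gene called in Trim33-KD became 16 in the brighter 50% of genes, 11 with a trended and robust prior and 2 (Tubb3 and Ciao2b) with values floored at 64. It became 0 with the mean of probe sets, array weights, only the groups compared, the replicate block, a signal minimum of 10, without the arrays of narrow spread, and without any single array (0 to 0). Apart from the settings' own construction, the cause was not tested. Activin counts were 0 under all alternatives. With the replicate block, 95 genes were called raised, at a median of 0.42. Same-numbered arrays correlated between -0.30 and 0.39 in their deviations. Between the treatments of a genotype the correlation was 0.39 in WT, 0.34 in Trim33-KD and -0.19 in Smad4-null. The numbers were not taken to pair arrays in the main fit. Whether same-numbered arrays of WT or of Trim33-KD shared a culture or a batch was not tested.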
